A study of Mus musculus with 22 samples.

Results

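The data are expression profiles of whole cerebellum from 10 female mice of the Sca7 line at 5 weeks of age, 5 knock-in and 5 wild type, out of 22 arrays in the series. The members were taken by their labels alone: every array titled as Sca7 cerebellum, with 1 array per mouse. The knock-in mice have the genotype that the series spells Sca7266Q/5Q, with a very long glutamine repeat in ataxin-7 from 1 Atxn7 allele and 5 glutamines from the other, and the remaining mice are labelled wild type. Both genotypes are on C57BL/6J after 10 generations of backcrossing. The labels call the mice biological replicates and place the knock-in animals at an early symptomatic stage. As a knock-in, the expanded repeat sits in the animal's own Atxn7 gene, so no transgene promoter limits the mutation to 1 cell type. The labels do not say whether the wild-type animals were littermates. The other 12 arrays come from female mice of a second knock-in line, Sca1154Q/2Q, with an expanded repeat in Atxn1, and from wild types of that line, at 4 weeks and at 9 to 12 weeks, on C57BL/6J after 5 to 8 generations. They were run on another array type and appear here only for side by side values.

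Ataxin-7, encoded by Atxn7, is a subunit of SAGA, a large coactivator complex that acetylates histones and removes ubiquitin from them. An expanded glutamine tract in ataxin-7 causes spinocerebellar ataxia type 7, in which Purkinje cells of the cerebellum and photoreceptors of the retina degenerate. Purkinje cells are the only output neurons of the cerebellar cortex, and they integrate input from the far more numerous granule cells and from climbing fibres. Values below are the log2 values that were deposited for each probe set, and each difference is knock-in minus wild type. Errors are SD over mice unless a 95% interval is given, and that interval uses the spread that limma, a linear model for arrays, estimates for each gene.

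The tissue matched its label. The Purkinje cell genes Pcp2 (a modulator of G protein signalling) and Calb1 (a calcium buffer) averaged 14.94 and 14.67, and the granule cell receptor subunit Gabra6 averaged 14.50 in knock-in and 14.47 in wild-type mice. Among 13 names of forebrain genes, 7 had no probe set with 1 gene symbol and so show nothing about the tissue. Another 3 lay under the brightness filter of 2.71. The 3 tested were Neurod6, Rgs14 and Lamp5, with mean levels of 5.14, 3.66 and 2.765. The array medians ran from 6.87 to 6.99, and each array correlated with its own genotype's mean at 0.997 to 0.998 across probe sets. The main component of variation held 18.8% of the variance and had wild-type mouse 4 at one end, with a score of 13.9. Knock-in mouse 3 lay at the other end, with a score of -10.2. On its array 27 genes lay more than 1 log2 unit from the median of the others, and on that of wild-type mouse 4 24 genes did. Which genes make up the component was not examined. Wild-type mouse 4 stood apart by its choroid plexus genes, whose mean was 6.00 on its array and 7.73 to 8.23 on the other 9. Pituitary transcripts stood out on 1 knock-in array, with Gh (growth hormone) at 7.15 and Prl (prolactin) at 5.49 in knock-in mouse 5. Gh was also at 5.18 in wild-type mouse 2.

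The comparison asked which transcripts differ between Sca7 knock-in and wild-type cerebellum early in disease. No gene passed. Of 9488 genes tested, 0 (0%) had a Benjamini-Hochberg adjusted p under 0.05 in limma, and the smallest adjusted p was 0.986. An unadjusted p under 0.05 was reached by 350 genes (3.69%), where 474 would be expected from a flat distribution of p. All 5 knock-in values lay above all 5 wild-type values for 38 genes (0.401%) and below them for 14 genes (0.148%), 52 genes or 0.548% in all. Over all genes the median difference was 0.0048, with 5020 genes above 0 and 4468 below.

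The replicates set narrow limits on most genes. The median 95% interval reached 0.151 log2 units to either side of the estimate, 0.122 for the brighter genes and 0.195 for the dimmer ones. The whole interval lay within 1.25-fold for 7593 genes (80%) and within 1.5-fold for 9154 genes (96.5%). It lay within 1.1-fold for only 1995 genes (21%), so small differences were below what 5 against 5 mice resolve for most transcripts. The estimate itself passed 1.25-fold for 128 genes, 1.5-fold for 23 and 2-fold for 1. The 1 gene beyond 2-fold was Slc15a2, a transporter of dipeptides and tripeptides, with a difference of 1.04. Its values were 8.41, 5.09, 9.83, 9.06 and 7.99 in knock-in and 7.38, 8.78, 6.31, 4.28 and 8.44 in wild-type mice. High and low mice occurred in both genotypes, and the groups overlapped over most of their range. Its lowest value was that of wild-type mouse 4, and the difference was 0.35 without that mouse and 1.78 without knock-in mouse 2.

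**Figure D1:**
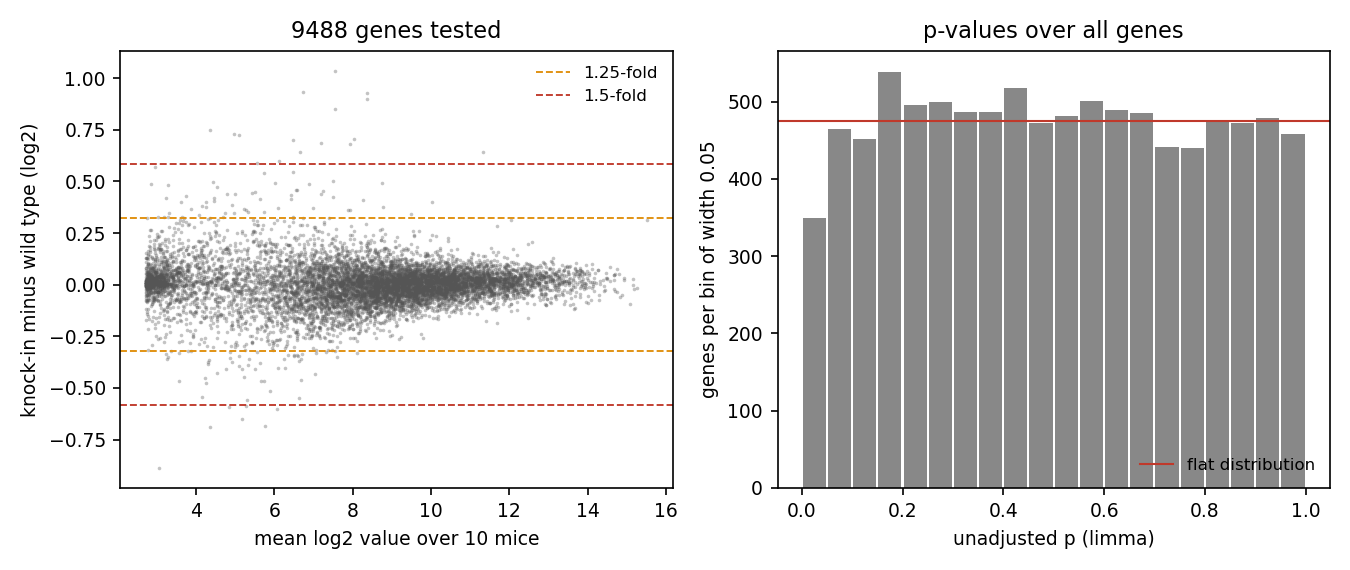
Left, the log2 difference of each of 9488 genes against its mean log2 value over 10 mice, with dashed lines at 1.25-fold and 1.5-fold. Right, the unadjusted limma p-values in bins of 0.05, with a line at the flat level of 474 genes; the first bin holds 350 genes.

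Atxn7 itself was read by 1 probe set. Its values were 4.44, 4.08, 4.71, 4.84 and 5.07 in knock-in and 4.43, 5.03, 3.38, 5.03 and 4.64 in wild-type mice. The groups overlapped, with the lowest value in wild-type mouse 3. The difference was 0.12 with a 95% interval from -0.52 to 0.77, and an exact two-sided permutation test over the 252 splits of the mice gave p = 0.746, where 0.00794 is the smallest it can give. The direction turned on 1 array: the difference was -0.16 without wild-type mouse 3 and 0.01 to 0.26 without any other single mouse. A longer repeat need not alter the level read by a probe set, so this value does not check the genotype labels. Atxn7 lies on chromosome 14, where 0 of 341 genes tested passed and 11 (3.23%) had an unadjusted p under 0.05.

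The partners of ataxin-7 stayed close to their wild-type levels. Of 26 names of SAGA subunits and ataxin-7 paralogs, 20 were tested, 10 above 0 and 10 below, with differences from -0.15 to 0.12 and a median of -0.0035. Kat2a, the complex's histone acetyltransferase, read 9.21, 9.23, 9.02, 9.06 and 9.12 in knock-in and 9.21, 9.31, 9.23, 9.25 and 9.16 in wild-type mice. The knock-in values reached lower but the groups overlapped, with a difference of -0.10 (95% interval -0.22 to 0.01). Usp22, the ubiquitin protease of the complex, averaged 9.68 ± 0.0526 in knock-in and 9.71 ± 0.0502 in wild-type mice (n = 5 each), a difference of -0.03 (95% interval -0.12 to 0.06). Supt20, a structural subunit, differed by -0.13 (95% interval -0.27 to 0.01). The interval was wider for Taf12, a histone-fold subunit with a difference of -0.15 (95% interval -0.38 to 0.08). The paralogs Atxn7l1 and Atxn7l3 differed by 0.05 and -0.04.

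Among genes higher in knock-in mice, those with the smallest p were Pabpc1, Irf9, Msto1, B3gat1 and Kdelr2. None passed, each having an adjusted p of 0.986, and in each of them all 5 knock-in values lay above all wild-type values. Pabpc1, which encodes the main cytoplasmic poly(A)-binding protein, read 12.30, 12.18, 12.16, 12.15 and 12.12 in knock-in and 11.98, 12.01, 12.05, 11.97 and 12.02 in wild-type mice. The genotypes were separated by less than the spread within the knock-in group, and the difference was 0.17 (95% interval 0.09 to 0.25, unadjusted p = 0.000501). Irf9, the DNA-binding subunit of the factor that type I interferon activates, read 7.07, 6.72, 6.70, 6.61 and 6.68 in knock-in and 6.52, 6.19, 6.03, 6.03 and 6.29 in wild-type mice. Knock-in mouse 1 was the highest, and the difference was 0.54, or 1.46-fold (95% interval 0.29 to 0.80, unadjusted p = 0.000598). Msto1, which is involved in mitochondrial distribution and morphology, differed by 0.45 (95% interval 0.24 to 0.67). B3gat1, a glucuronyltransferase that makes the HNK-1 carbohydrate, differed by 0.31 at a level near the bottom of the scale, 3.75 ± 0.169 against 3.43 ± 0.0661 (n = 5 each). Kdelr2, a receptor that retrieves proteins to the endoplasmic reticulum, differed by 0.24 (95% interval 0.11 to 0.37). Another probe set of Pabpc1, Kdelr2 and B3gat1 pointed the other way, at -0.07, -0.12 and -0.07.

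Among genes lower in knock-in mice, those with the smallest p were Plaat1, Gad2, Zcchc7, Epm2aip1 and Peak1, all with an adjusted p of 0.986. Plaat1, a phospholipid-modifying enzyme, read 5.20, 5.78, 5.58, 5.81 and 5.84 in knock-in and 6.13, 6.30, 5.96, 6.10 and 6.31 in wild-type mice. The groups did not overlap, with knock-in mouse 1 lowest, and the difference was -0.52 (95% interval -0.79 to -0.24, unadjusted p = 0.00156). Gad2, which synthesises GABA in inhibitory terminals, read 7.09, 7.30, 7.24, 6.97 and 7.24 in knock-in and 7.60, 7.55, 7.37, 7.53 and 7.42 in wild-type mice. All knock-in values lay below the wild-type range, by 0.33 on average (95% interval of the difference -0.50 to -0.15). Epm2aip1, which binds the glycogen phosphatase laforin, differed by -0.32 without overlap, and knock-in mouse 1 lay far below the rest of its group at 7.05. Zcchc7, an RNA-binding zinc-finger protein, differed by -0.26 and Peak1, a pseudokinase of the actin cytoskeleton, by -0.47, both with overlapping groups.

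**Figure D2:**
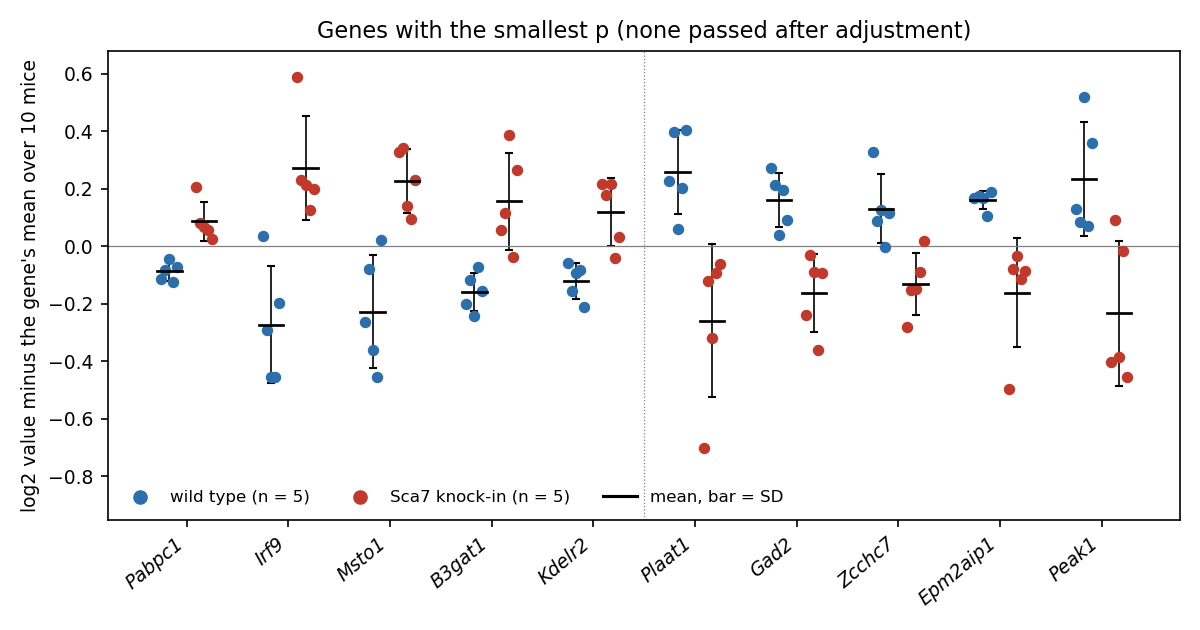
Values of the 5 genes of smallest p on either side, as log2 value minus the gene's mean over 10 mice, for wild-type (blue) and Sca7 knock-in mice (red); horizontal bars are means and vertical bars SD, n = 5 each. Groups do not overlap for 8 of the 10 genes, and the adjusted p is 0.986 for all.

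Purkinje cell genes, the neurons lost in the disease, were near their wild-type levels at 5 weeks. Of 32 names, 25 were tested; 11 were above 0 and 14 below, none passed, and the median difference was -0.02. Medians this near 0 have no settled sign: with arrays centred on their median, those of 6 of 29 lists, Purkinje cell genes included, turned from negative to positive. The mean of the list was 11.32 to 11.55 in knock-in and 11.38 to 11.51 in wild-type mice. Pcp2 read 14.95, 14.94, 14.91, 14.95 and 14.98 in knock-in and 14.89, 14.94, 14.91, 14.91 and 14.99 in wild-type mice. These values coincided, with a difference of 0.02 (95% interval -0.04 to 0.09). Calb1 differed by -0.02 (95% interval -0.08 to 0.04). Probe sets this bright may be near the top of the array's range, where a difference reads smaller than it is, which was not tested. Since the RNA came from whole cerebellum, fewer cells of a type and less RNA per cell cannot be told apart in these values.

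Other Purkinje cell genes lie lower on the scale and gave wider but still small limits. Plcb4, the phospholipase that acts downstream of the glutamate receptor mGluR1, read 10.40, 10.47, 10.54, 10.44 and 10.59 in knock-in and 10.60, 10.61, 10.65, 10.56 and 10.65 in wild-type mice. Below the wild-type range lay 4 of the 5 knock-in values, and the difference was -0.13 (95% interval -0.22 to -0.04, unadjusted p = 0.00872), the only 1 of 25 Purkinje cell genes under an unadjusted p of 0.05, against 3.69% of all genes. Lhx1, a transcription factor that Purkinje cells keep from development, differed by -0.10 (95% interval -0.27 to 0.08). Rgs8, a regulator of G protein signalling, read 12.71, 12.71, 12.80, 12.91 and 13.04 in knock-in and 12.94, 12.72, 12.99, 12.84 and 13.03 in wild-type mice. Both groups covered almost the same range, with a difference of -0.07 (95% interval -0.23 to 0.09). Inpp5a, an inositol phosphatase, differed by -0.05 (95% interval -0.15 to 0.05).

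**Figure D3:**
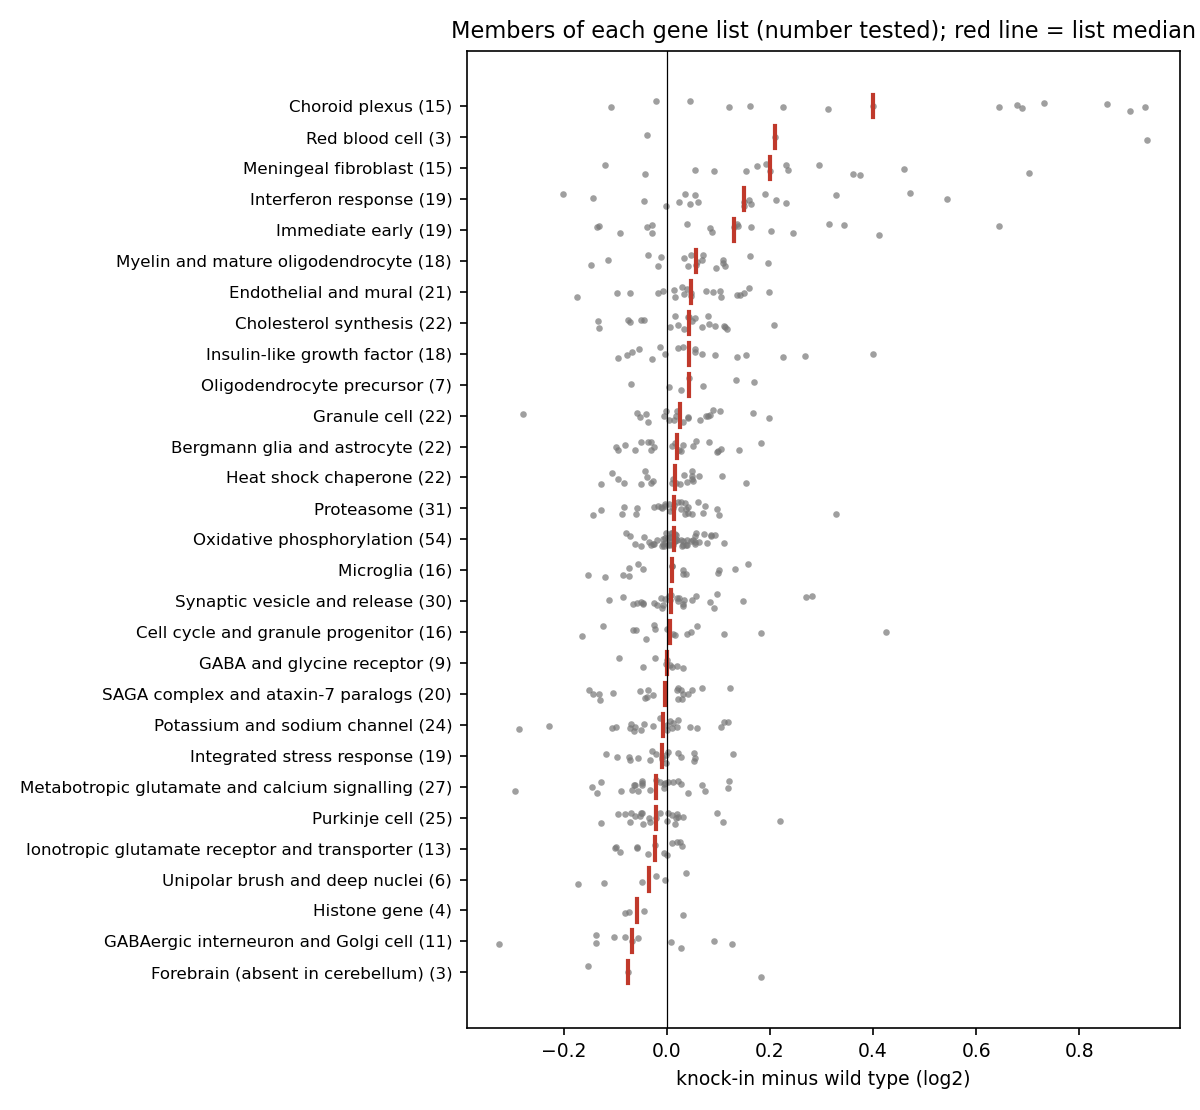
The log2 difference of every tested member of 29 gene lists (grey points; number tested in brackets) and the list medians (red lines), ordered by median. Choroid plexus has the highest median, 0.40, and most lists of neuronal genes have a median within 0.07 of 0.

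Granule cell genes had a median difference of 0.03 over 22 tested members, 15 above 0 and 7 below, and none passed. Neurod1, a transcription factor of granule cells, read 13.68, 13.73, 13.78, 13.82 and 13.81 in knock-in and 13.62, 13.65, 13.71, 13.66 and 13.67 in wild-type mice. Knock-in mouse 1 lay inside the wild-type range and the other 4 above it, with a difference of 0.10 (95% interval 0.03 to 0.18). Gabra6, the receptor subunit that marks mature granule cells, differed by 0.03 (95% interval -0.04 to 0.10). Cntn2, an adhesion molecule of migrating and early granule cells, was dim, at 3.05 ± 0.216 in knock-in and 3.33 ± 0.233 in wild-type mice (n = 5 each). Genes of GABAergic interneurons and Golgi cells had a median of -0.07 over 11 tested members, 4 above 0 and 7 below. Gad2, described above, was the 1 member of 11 whose groups did not overlap, against 0.548% of all genes. Slc32a1, the vesicular GABA transporter of the same cells, differed by -0.06 (95% interval -0.18 to 0.07), and the neuropeptides Npy and Cck by -0.14 each. The 6 tested genes of unipolar brush cells and deep nuclei had a median of -0.03.

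Genes that act in Purkinje cell calcium signalling and in synapses also had medians near 0. Of 27 tested genes of metabotropic glutamate and calcium signalling, 9 were above 0 and 18 below, with a median of -0.02. An unadjusted p under 0.05 was reached by 1 gene above 0 (Camkk2) and 2 below (Ryr1 and Plcb4), against 3.69% of all genes. The groups did not overlap for 1 of the 27, against 0.548% of all genes, and none passed. Ryr1, a calcium release channel of the endoplasmic reticulum, read 6.24, 6.05, 6.16, 6.10 and 6.16 in knock-in and 6.69, 6.37, 6.13, 6.37 and 6.62 in wild-type mice. Wild-type mouse 3 lay among the knock-in values, and the difference was -0.29 (95% interval -0.52 to -0.07). The kinases Camkk2 and Camk4, of which the first activates the second, differed by 0.12 and -0.15. Potassium and sodium channel genes had a median of -0.0065 over 24 members, ionotropic glutamate receptors and transporters -0.02 over 13, and GABA and glycine receptors 0.0012 over 9. The list means of the last group lay within 10.70 and 10.75 on all 10 arrays. Genes of synaptic vesicles and release had a median of 0.0074 over 30 members, 17 above 0 and 13 below. Among them Rab3a, a GTPase of synaptic vesicles, differed by 0.10 (95% interval 0.01 to 0.19).

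Glial and vascular genes were also close between genotypes, and none passed. Bergmann glia and astrocyte genes had a median of 0.02 over 22 members, myelin genes 0.06 over 18 and oligodendrocyte precursor genes 0.04 over 7. Gfap, the intermediate filament of astrocytes, read 8.92, 9.57, 9.13, 9.09 and 9.23 in knock-in and 9.18, 8.93, 8.98, 8.85 and 9.08 in wild-type mice. Only knock-in mouse 2 was clearly above the wild-type range, and the difference was 0.18 (95% interval -0.05 to 0.42). Mbp, a main protein of myelin, differed by -0.02 (95% interval -0.10 to 0.06). Microglial genes had a median of 0.01 over 16 members, with Aif1 at 0.10 and Tyrobp, a signalling adaptor of microglia, at -0.15. Endothelial and mural genes had a median of 0.05 over 21 members, with Pdgfrb, the pericyte receptor, at 0.20 (95% interval -0.05 to 0.45).

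The largest median of any list was that of choroid plexus genes, at 0.40 over 15 tested members, and it rested on wild-type mouse 4. The choroid plexus is an epithelium of the ventricles that makes cerebrospinal fluid and lies against the cerebellum at dissection. Folr1, its folate receptor, read 8.94, 8.87, 9.02, 8.80 and 8.42 in knock-in and 8.40, 8.86, 8.61, 4.97 and 8.71 in wild-type mice. Every mouse but wild-type mouse 4 lay between 8.40 and 9.02. Ttr, which carries thyroxine and is the most abundant of these transcripts, read 14.19 in that mouse and 15.59 to 15.82 in the other 9. Kcne2, a potassium channel subunit, read 4.35 there and Kl, the anti-ageing protein klotho, 4.71. Without wild-type mouse 4 the median of the list was 0.04, and without it and knock-in mouse 5, which has the next lowest choroid level, it was 0.08. The difference of Folr1 was 0.90 with all mice and 0.17 without wild-type mouse 4, that of Aqp1, a water channel, 0.73 and 0.18, and that of Calml4, a calmodulin-like protein, 0.69 and 0.15.

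Genes of the insulin-like growth factor pathway had a median of 0.04 over 18 tested members, 11 above 0 and 7 below, and several of them are also made by choroid plexus or meninges. Igf1, the ligand made in the cerebellum by neurons and glia, differed by -0.08 (95% interval -0.39 to 0.24), and its receptor Igf1r by 0.05. Igf2, the ligand made by choroid plexus and meninges, read 10.54, 10.71, 10.38, 10.66 and 10.44 in knock-in and 10.38, 10.30, 10.28, 10.04 and 10.60 in wild-type mice. The lowest value was that of wild-type mouse 4, and the difference was 0.23 with all mice and 0.16 without it. The binding protein Igfbp2 was low on the same array: it read 8.46 in wild-type mouse 4 and 9.91 to 10.48 elsewhere, and its difference was 0.40 with and 0.06 without that mouse. Igfbp7, a binding protein of vessels, differed by 0.27 with all mice and 0.18 without that mouse. Igfbp5 differed by -0.01 (95% interval -0.30 to 0.27).

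Meningeal fibroblast genes had a median of 0.20, with 13 of 15 tested members above 0. An unadjusted p under 0.05 was reached by 4 of them, against 3.69% of all genes, and none passed. Col3a1, a fibrillar collagen, read 8.31, 8.91, 8.67, 8.36 and 7.72 in knock-in and 8.04, 7.52, 6.96, 7.74 and 8.21 in wild-type mice. Its lowest value was in wild-type mouse 3, the groups overlapped, and the difference was 0.70 (95% interval 0.15 to 1.26). Col1a2, another collagen chain, differed by 0.37, Ogn, a small proteoglycan, by 0.36 and Mgp, a matrix protein, by 0.23. The list means were 8.06 to 8.32 in knock-in and 7.78 to 8.12 in wild-type mice, and only wild-type mouse 5 lay within the knock-in range. How much meninges stayed on each cerebellum was not tested. The 3 tested red blood cell genes had a median of 0.21, led by Alas2, the haem synthesis enzyme of red cells, which ranged from 6.25 to 8.34 in knock-in and from 5.75 to 7.18 in wild-type mice. Without knock-in mouse 1 the median of these genes was 0.02.

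**Figure D4:**
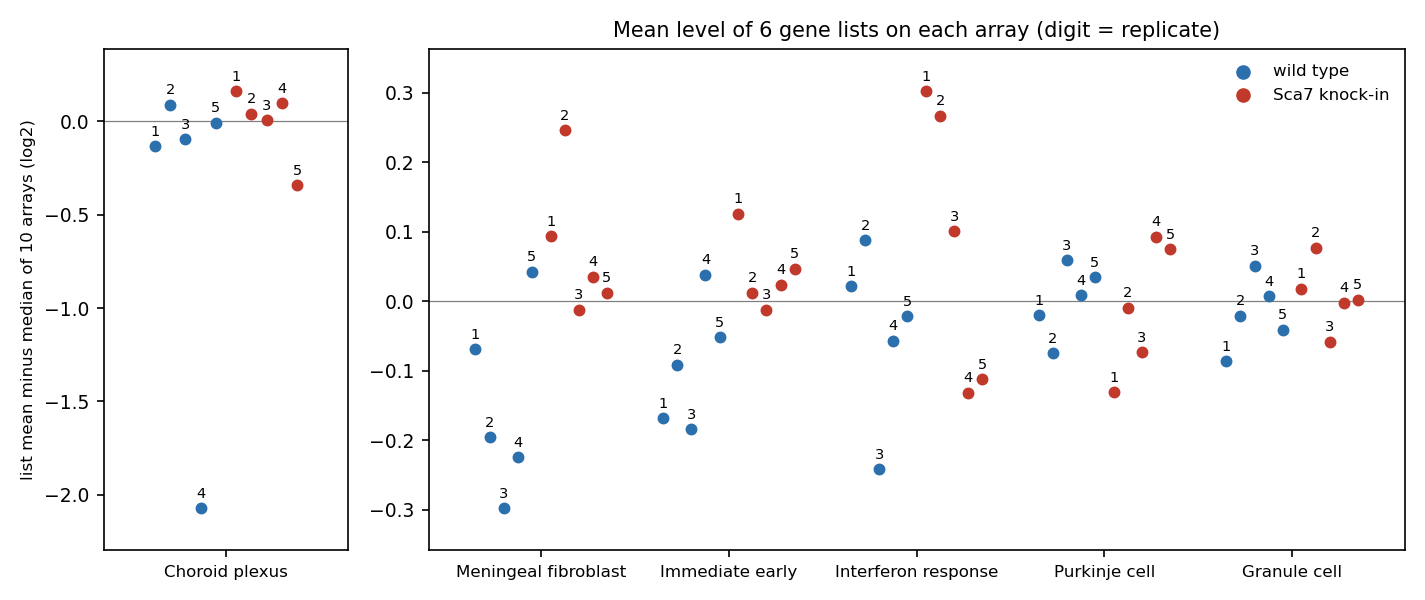
Mean log2 value of 6 gene lists on each of the 10 arrays, minus the median of the arrays; blue, wild type, red, Sca7 knock-in, digits give the mouse. The scale at left differs: choroid plexus in wild-type mouse 4 lies about 2 log2 units under the others, while Purkinje and granule cell means stay within 0.15 of the median.

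Immediate early genes, which neurons switch on within minutes of activity or handling, had a median difference of 0.13, with 13 of 19 tested members above 0. An unadjusted p under 0.05 was reached by 4 of the 19, all above 0, against 3.69% of all genes, and none passed. The median was 0.06 without knock-in mouse 4 and 0.09 to 0.15 without any other single mouse. With all mice the median member was Fosl2, a dim gene that averaged 2.80 in knock-in and 2.67 in wild-type mice. Without knock-in mouse 4 it fell under the brightness filter, which was applied anew, so that median covers a changed set of genes. Fosl2 is also 1 of the 4 genes with an unadjusted p under 0.05. Fos, a subunit of the AP-1 transcription factor, read 12.18, 11.54, 11.82, 11.15 and 11.59 in knock-in and 10.52, 11.54, 10.22, 11.49 and 11.29 in wild-type mice. Wild-type mice 1 and 3 were low and the other 3 lay inside the knock-in range. The difference was 0.64 (95% interval 0.06 to 1.23) with all mice and 0.21 without those mice. Dusp1, a phosphatase that turns off MAP kinases, differed by 0.31 and by 0.17 without them, and Nr4a1, a nuclear receptor, by 0.34 and by 0.15. Wild-type mouse 3 was lowest and wild-type mouse 1 next for each of these 3 genes. The mice were set aside after their values were seen, so the second value of each pair only shows how far the difference rests on them.

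The promoters of these 3 genes are printed because their values were low in the same wild-type mice. Each is the stretch of 250 bases before the RefSeq start site in GRCm38.p6, written 5′ to 3′ on the gene's strand. Capitals mark TGACG or its reverse complement CGTCA, the core of the element bound by the cyclic AMP response element binding protein. The windows are chr12:85473640-85473889 (plus strand) for Fos, chr17:26508473-26508722 (minus strand) for Dusp1 and chr15:101266596-101266845 (plus strand) for Nr4a1.
Fos: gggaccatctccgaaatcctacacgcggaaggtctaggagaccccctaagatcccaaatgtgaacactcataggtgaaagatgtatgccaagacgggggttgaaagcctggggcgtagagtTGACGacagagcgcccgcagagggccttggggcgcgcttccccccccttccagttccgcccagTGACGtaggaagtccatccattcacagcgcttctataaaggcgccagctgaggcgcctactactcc
Dusp1: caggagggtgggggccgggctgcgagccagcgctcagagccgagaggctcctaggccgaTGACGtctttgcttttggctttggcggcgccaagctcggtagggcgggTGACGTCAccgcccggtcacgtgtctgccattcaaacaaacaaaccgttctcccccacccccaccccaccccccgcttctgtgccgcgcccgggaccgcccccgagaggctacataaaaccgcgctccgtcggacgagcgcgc
Nr4a1: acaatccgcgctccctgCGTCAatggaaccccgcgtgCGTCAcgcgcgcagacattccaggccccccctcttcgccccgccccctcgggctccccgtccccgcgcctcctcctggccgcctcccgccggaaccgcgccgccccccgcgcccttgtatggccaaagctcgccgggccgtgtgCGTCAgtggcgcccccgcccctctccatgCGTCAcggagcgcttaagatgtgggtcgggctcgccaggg
The Fos window holds 2 matches, at 129 and 66 bases before the start. The Dusp1 window holds 3, of which a TGACG and a CGTCA overlap in a palindrome, and the Nr4a1 window holds 4. Of 32851 promoter windows of this length, 5836 (17.8%) hold at least 1 match on either strand. A match describes the letters of the window and is no measurement of binding.

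Wild-type mice 1 and 3 also differed from the other mice in Fkbp5 and Zbtb16. Fkbp5, a cochaperone of the glucocorticoid receptor that glucocorticoids induce, read 6.98 and 6.92 in wild-type mice 1 and 3, 5.00 to 5.88 in the other wild-type mice and 5.21 to 5.66 in knock-in mice. Zbtb16, a transcription factor also induced by glucocorticoids, read 5.06 and 4.63 in these mice, 2.59 to 2.63 in the other wild-type mice and 2.55 to 2.65 in knock-in mice. These genes were picked because they stood apart in these mice, after their values were seen. No list of glucocorticoid-induced genes was examined, and a hormone or stress state of these mice was not tested. The differences between genotypes were -0.68 for Fkbp5 and -0.89 for Zbtb16, and neither passed.

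Interferon response genes had a median of 0.15 over 19 tested members, 15 above 0 and 4 below. Irf9, described above, was the 1 member of 19 under an unadjusted p of 0.05, against 3.69% of all genes, and the 1 member whose groups did not overlap, against 0.548%. The median was 0.05 without wild-type mouse 3 or without knock-in mouse 2, 0.07 without knock-in mouse 1 and 0.09 without knock-in mouse 3 or wild-type mouse 4. It was 0.20 without knock-in mouse 4 and 0.12 to 0.16 without any other single mouse. The list means were 6.11, 6.07, 5.91, 5.67 and 5.69 in knock-in and 5.83, 5.89, 5.56, 5.75 and 5.78 in wild-type mice. Knock-in mice 1, 2 and 3 were highest, while knock-in mice 4 and 5 were lower than all wild-type mice but mouse 3. Rsad2, an antiviral enzyme, read 5.80 in knock-in mouse 1 and 3.68 in knock-in mouse 5, and differed by 0.47 (95% interval -0.26 to 1.20). Psmb9, an immunoproteasome subunit, read 3.90 and 3.52 in knock-in mice 1 and 2 and 2.81 to 2.93 in the other 8 mice. Stat2, the partner of Irf9 in the interferon-activated factor, differed by -0.20 (95% interval -0.43 to 0.03).

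Metabolic and stress genes were close between genotypes, and none passed. Of 22 tested genes of cholesterol synthesis, 16 were above 0, with a median of 0.04. Hmgcs1, which makes the precursor of mevalonate, read 12.45, 12.72, 12.76, 12.76 and 12.73 in knock-in and 12.51, 12.53, 12.41, 12.49 and 12.43 in wild-type mice. Knock-in mouse 1 lay among the wild-type mice and the other 4 lay above them all, and the difference was 0.21 (95% interval 0.08 to 0.33, unadjusted p = 0.00415). Without knock-in mouse 1 the difference was 0.27, with an adjusted p of 0.0987 that was the smallest of any gene when 1 mouse was left out. The other probe sets of Hmgcs1 gave smaller differences in the same direction with all mice, at 0.127, 0.111 and 0.145. With the probe sets of each gene averaged, the difference of Hmgcs1 was 0.148. Subunits of oxidative phosphorylation had a median of 0.01 over 54 members, 37 above 0 and 17 below, with differences from -0.08 to 0.11. The proteasome had a median of 0.01 over 31 members, heat shock chaperones 0.02 over 22, the integrated stress response -0.0088 over 19 and histone genes -0.06 over 4. Genes of the cell cycle and of granule cell progenitors had a median of 0.0063 over 16 members. Ccnd2, a cyclin of dividing granule cell progenitors, stood above them with 7.70, 7.89, 7.99, 7.61 and 7.41 in knock-in and 7.39, 7.42, 7.34, 6.80 and 7.51 in wild-type mice. Wild-type mouse 4 was lowest, and the difference was 0.43 with all mice and 0.30 without it.

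In the Sca1 line, 0 genes (0%) passed at 4 weeks, the age nearest to that of the Sca7 mice, and 14 (0.148%) passed at 9 to 12 weeks, with 3 against 3 mice at each. In the mean over both ages, 33 genes (0.349% of those tested) passed with 6 against 6 mice. All 33 were tested in the Sca7 table and 0 passed. Of them, 1 had an unadjusted p under 0.05, against 3.69% of all genes, and 26 had the same sign. The share of all genes with the same sign in both lines was not counted, so the 26 cannot be read as likeness between the lines. The tables were normalised separately on different arrays, and no difference between the lines was tested. Since these genes were chosen for a large Sca1 difference, the values of both lines are given side by side only as a description. Inpp5a was at -0.28 at 4 weeks and -0.41 at 9 to 12 weeks in Sca1 and at -0.05 in Sca7. Rgs8 was at -0.27 and -0.50 in Sca1 and -0.07 in Sca7, and Lhx1 at -0.50 and -0.47 in Sca1 and -0.10 in Sca7. The 1 gene with an unadjusted p under 0.05 in Sca7 mice was Fcgr2b, an inhibitory receptor for immunoglobulin G, with 0.33 and 0.79 in Sca1. In Sca7 mice it differed by 0.72 (95% interval 0.28 to 1.17) and all knock-in values lay above all wild-type values, but its adjusted p was 0.986. Igfbp5, which was not among the 33, was at -1.18 in the Sca1 mean of ages and -0.01 in Sca7.

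**Figure D5:**
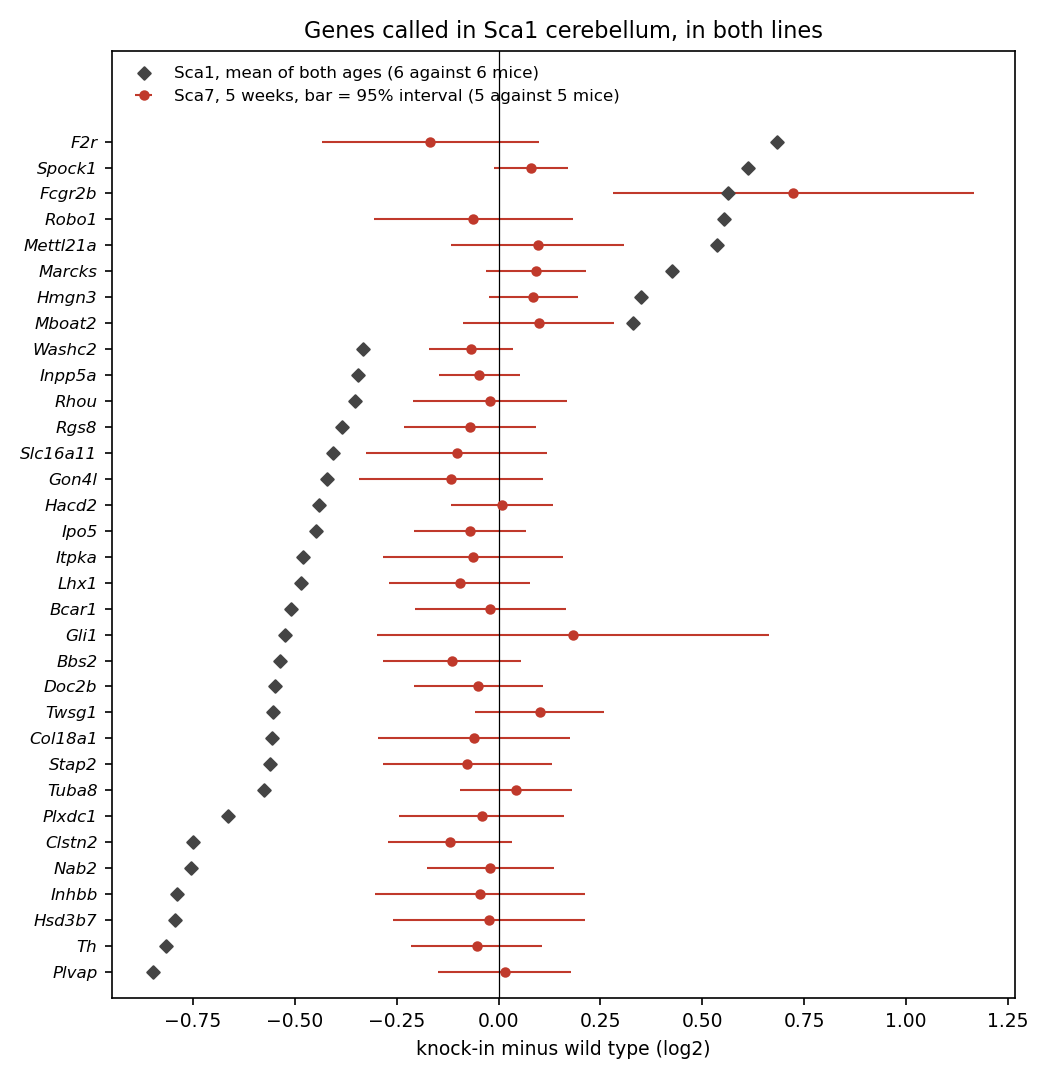
Log2 differences of the 33 genes that passed in Sca1 cerebellum: Sca7 at 5 weeks (red points with 95% intervals, 5 against 5 mice) and Sca1 as the mean of both ages (grey diamonds, 6 against 6 mice). The genes were chosen for their Sca1 difference; the red interval of Fcgr2b is the only one that lies wholly away from 0.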

How the data were processed

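Total cerebellar RNA of 10 Sca7 mice was measured on Affymetrix mouse arrays, 1 array per mouse, and the samples were grouped by the genotype in their labels. The authors deposited 1 value per probe set and array on a log2 scale, the base being inferred from the range. GCOS 1.1 is named in the submitters' processing notes. How the values were background-corrected, normalized and summarised is not stated there. No further scaling was applied.

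Of 22626 probe sets (64 controls left out), 20380 carried 1 gene symbol, 691 several and 1555 none in the platform annotation. The brightest 1-symbol probe set of each of 12393 genes was kept, and genes in the lowest 25% of probe sets (mean under 2.71) were left out, which kept 9488. Genotypes were compared in R 4.3.3 with limma 3.58.1 (lmFit, eBayes with an intensity trend), two-sided, with Benjamini-Hochberg adjustment at 0.05 and 8 residual degrees of freedom. The fit was tested on simulated data. The number of arrays limits the precision.

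The arrays were taken by their labels. The comparison, the 29 gene lists and the naming rule were chosen with earlier results of these data known. Lists are described by counts and medians with no test. Genes named are Atxn7 and SAGA partners, the 5 smallest p in each direction as none passed, the 4 smallest p and first 2 measured markers of each list, and the insulin-like growth factor names. A few more, named after their values were seen, are Slc15a2, Gh, Prl, Pomc, Kcne2, Kl, Fkbp5, Zbtb16, Oasl2, Rtp4, S100a8, S100a9 and Fcgr2b. The Sca1 table (12 arrays) was fitted separately in the same way. Alternatives were other filters, scalings, probe set rules and variance models, array weights, a choroid plexus covariate, a replicate block and leaving out each mouse.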

Additional observations from a re-analysis of the deposited data

Results flagged for a closer look

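In groups of 5, a mouse was picked out when its gap to the nearest other mouse exceeded 0.71 of the group's range, Dixon's 95% critical value. Of 228 groups examined (85 genes and 29 lists in both genotypes), 29 had such a mouse. Chance picks out about 1 in 20 groups, but this count cannot be set against that share, since some of the genes were looked at because a mouse stood apart and many of the values come from the choroid plexus genes of 1 mouse. Values are log2 levels.

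Wild-type mouse 4 was picked out most often. Its choroid plexus values were low: Folr1 at 4.973, Kcne2 at 4.346, Kl at 4.714, Aqp1 at 2.41, Calml4 at 4.72, Ttr at 14.189 and Igfbp2 at 8.463, with a list mean of 5.995 against 7.94 to 8.16 in the other wild-type mice. It was also low for Ccnd2 at 6.8 and Epm2aip1 at 7.65, and high for Pdgfrb at 8.258 and for the red blood cell list, with a mean of 4.888.

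Knock-in mouse 5 was high for the pituitary genes Gh at 7.148, Prl at 5.487 and Pomc (pro-opiomelanocortin) at 3.776, against at most 2.914, 3.064 and 2.984 in the other knock-in mice. Wild-type mouse 2 was high for Gh at 5.176. Wild-type mouse 5 was low for Pomc at 2.882 and high for Mgp at 10.335. The other wild-type mice read 2.957 to 2.965 for Pomc, so this gap was small and near the bottom of the scale.

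Knock-in mouse 1 was low for Hmgcs1 at 12.447, Epm2aip1 at 7.047, Kcnn1 (a small-conductance potassium channel) at 3.547 and Zbtb16 at 2.546, and high for Irf9 at 7.073. Knock-in mouse 3 was low for Cntn2 at 2.663 and Ppp1r14a at 9.394. Oasl2, an interferon-induced gene, was low in 1 mouse of each genotype, at 3.465 in knock-in mouse 4 and 3.107 in wild-type mouse 3, against 4.91 to 5.33 in the others. Wild-type mouse 1 was low for Camkk2 at 10.964 and high for the oligodendrocyte precursor list, with a mean of 7.711.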

How the results depend on the processing

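No gene passed in limma under any of the 23 other settings run. Unadjusted p under 0.05 was reached by 250 to 496 genes when 1 mouse was left out, the lowest without knock-in mouse 3 and the highest without knock-in mouse 1. With arrays centred on their median the count was 608 (smallest adjusted p 0.454, Pabpc1). It was 354 of 12393 without the brightness filter and 617 of 15549 with every probe set by itself. Array weights gave 460 and the choroid plexus mean as a covariate gave 310. A flat distribution of p gives 474 for the genes of the main run, which had 350. The counts with centring and without knock-in mouse 1 were above that level. The mice share replicate numbers between genotypes, and the labels do not say whether same-numbered mice are paired. Deviations of same-numbered mice correlated at -0.129 to 0.11, which showed no clear pairing but cannot decide whether they shared a litter or day. With the replicate block, 425 genes had an unadjusted p under 0.05 and 0 passed.

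List medians moved by more than the spread between mice, taken as the SD of each list's own mean within genotypes, in 6 of 639 recomputations. With arrays centred on the median they were 0.0288 for SAGA, 0.0335 for GABA and glycine receptors, 0.0397 for synaptic vesicles and 0.0454 for oxidative phosphorylation. With that centring, 6 of 29 list medians changed sign (SAGA, Purkinje cell, calcium signalling, channels, ionotropic glutamate receptors, stress response), and 3 did with quantile normalization (Bergmann glia, synaptic vesicles, oxidative phosphorylation), all between -0.0232 and 0.02 before. Without 1 mouse, the SAGA median ran from -0.0369 to -0.002. Without wild-type mice 1 and 3, a choice made after seeing the data, that of GABA and glycine receptors was 0.0201. With 1 mouse left out, the choroid plexus median ran from 0.0365, without wild-type mouse 4, to 0.5617. The fall to 0.0365 is not among the 6, because wild-type mouse 4 itself widens the spread of that list. The number of mice and dim signal limit small differences.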

Other observations

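S100a8 and S100a9, which encode the subunits of calprotectin and are abundant in neutrophils, varied from mouse to mouse within both genotypes. S100a8 read 6.85, 7.30, 6.09, 6.21 and 7.64 in knock-in and 6.97, 4.67, 7.17, 6.10 and 5.68 in wild-type mice, and S100a9 read 5.03, 4.68, 4.17, 3.72 and 6.08 and 4.53, 2.54, 5.42, 3.38 and 4.07. Wild-type mouse 2 was lowest and knock-in mouse 5 highest for both. The genotypes overlapped, with differences of 0.70 and 0.75, and neither passed. Rtp4, an interferon-induced gene outside the list, read 6.65, 6.22, 5.73, 5.25 and 5.37 in knock-in and 5.27, 6.03, 4.82, 5.18 and 4.98 in wild-type mice, with knock-in mouse 1 highest and wild-type mouse 3 lowest; its difference was 0.59 and did not pass. These genes were chosen after their values were seen.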
